A study of Mus musculus with 6 samples.

Results

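The cathepsins described here are 10 protease genes, Ctsa, Ctsb, Ctsc, Ctsd, Ctsf, Ctsh, Ctsk, Ctsl, Ctso and Ctsz, taken by symbol from the 24063 gene symbols measured by RNA-seq. They were followed in 6 libraries of mouse stem-like medulloblastoma cells from the cerebellum. The tested cells carried the CRISPR guide sgMiat-6 or sgMiat-96 and are labelled as a Miat knockdown, and the control cells carried the guide sgGal4-4 and are labelled WT, with 2 libraries for each guide. Cells of all 3 groups had the genotype Math1-Cre; SmoM2, in which the Math1 (Atoh1) promoter drives Cre and thereby SmoM2, an always-active form of the Hedgehog signal transducer Smoothened, so that the control cells are tumour cells too. No animal age, no cell clone and no treatment is given in the labels, nor whether the 2 libraries of a guide came from separate cultures, so the p-values measure the spread between these libraries, which may be technical.

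Cathepsins are proteases that work mostly inside the lysosome, the acid compartment in which cells digest protein. They are made as inactive precursors, tagged with mannose 6-phosphate, carried to the lysosome by receptors and activated there by cleavage, and cystatins and some serpins block those that escape. Ctsd is an aspartic protease, Ctsa is a serine carboxypeptidase, and the other members are papain-type cysteine proteases. In brain tumours cathepsins B, L and D are known for degrading the matrix around tumour cells.

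Miat, the long non-coding RNA aimed at by the guides, had 0 counts in all 4 sgMiat-6 and sgMiat-96 libraries, against 140 and 139 counts in the sgGal4-4 libraries. Set against a floor of 3 counts over each group, its level in sgMiat-6 cells was at least 94.4-fold lower than in control cells, and in sgMiat-96 cells at least 83.4-fold. The libraries held between 18438909 and 19650274 counts in the transcript rows used, so that 3 counts equal 0.149 to 0.173 CPM (counts per 1e6 counts, scaled by TMM). Vim, an intermediate filament gene of neural stem cells, averaged 2837 ± 174 CPM in sgMiat-6, 3230.4 ± 109 in sgMiat-96 and 1496 ± 35.4 in sgGal4-4 cells (SD, n = 2 each), while Id1, an inhibitor of differentiation factors, averaged 5.29 ± 0.535 CPM in sgMiat-6, 4.27 ± 0.565 in sgMiat-96 and 76.9 ± 2.49 in sgGal4-4 cells. Of the 10 stem cell markers listed, Vim, Fabp7 and Olig2 rose with both guides, Id1, Hes1, Sox9 and Msi1 fell, Nes and Sox2 were not called, and Prom1 had a single count over all libraries. In that comparison 33.1% of all genes tested rose and 33.4% fell. Atoh1, which defines granule neuron progenitors, had 0 counts in every library. The listed stem cell markers other than Prom1 were thus detected, though they did not move in 1 direction, and the progenitor marker behind the Cre driver was at 0.

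Of the 10 cathepsins, 8 passed the filter on low counts and were tested among 13219 genes with edgeR's quasi-likelihood test, a call being a Benjamini-Hochberg adjusted p under 0.05. With both Miat guides against sgGal4-4, 5 cathepsins rose (Ctsd, Ctsl, Ctsa, Ctso and Ctsb), Ctsc fell and Ctsf and Ctsz were not called. The change reached well beyond this family, since 66.5% of all genes tested were called in that comparison, 33.1% as higher and 33.4% as lower. A count of 6 called cathepsins of 8 is therefore close to the share of all genes. In levels alone, 5 of the 8 tested were above both sgGal4-4 libraries in all 4 Miat libraries and 1 was below, against 34.0% and 33.0% of all genes tested. The median log2 fold change of the tested cathepsins was 0.68, against 0.00 for all genes tested. In bulk RNA, fewer cells of a type and less RNA per cell cannot be told apart for any of these values.

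**Figure D1:**
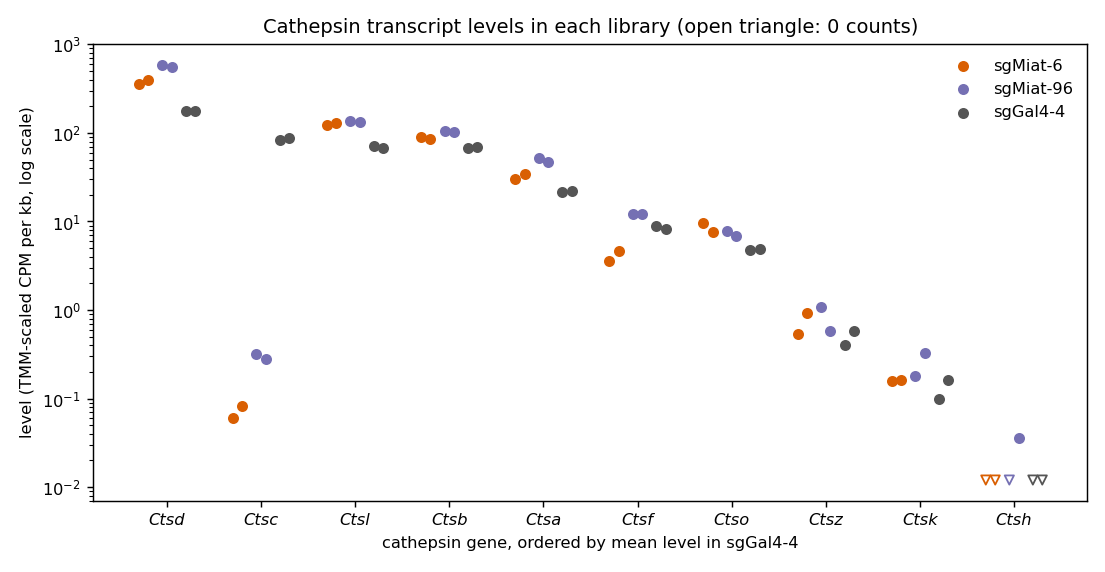
Level of each of the 10 cathepsins in every library, in CPM per kb of transcript on a log scale, with the 2 sgMiat-6 and 2 sgMiat-96 libraries left of the 2 sgGal4-4 libraries and open triangles for 0 counts. Ctsc lies at 0.0602 to 0.318 CPM per kb in the 4 Miat libraries and at 84.2 and 87.7 in the sgGal4-4 libraries, while Ctsd, Ctsl, Ctsa, Ctsb and Ctso are higher in all 4 Miat libraries.

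Ctsc (cathepsin C, dipeptidyl peptidase I), which removes dipeptides from the ends of proteins and in immune cells activates the serine proteases of granules, was almost lost. It had 3 and 4 counts in the sgMiat-6 libraries and 14 and 12 in the sgMiat-96 libraries, against 4040 and 4279 in the sgGal4-4 libraries. In CPM these are 0.149 and 0.204 with sgMiat-6, 0.787 and 0.693 with sgMiat-96, and 208 and 217 with sgGal4-4. The groups do not overlap, and the sgMiat-6 libraries lie at and just above the floor of 3 counts. The fitted log2 fold change was −10.18 ± 0.21 for sgMiat-6 (SE, adjusted p = 2.69e-12) and −8.15 ± 0.18 for sgMiat-96 (adjusted p = 5.02e-12). From summed counts, Ctsc was 1207-fold lower with sgMiat-6 (95% interval 586 to 3003) and 287-fold lower with sgMiat-96 (196 to 439.7), where the Clopper-Pearson interval covers counting error only. The remaining counts were higher with sgMiat-96 than with sgMiat-6, 26 against 7 over the group, a log2 difference of 2.03 ± 0.44 (adjusted p = 0.00446). That difference was no longer called when sgMiat-96 replicate 1 was left out (1.94, adjusted p = 0.0502).

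The Ctsc gene lies at chr7:88278024-88315861 (GRCm38). The bases just upstream of it, from the RefSeq promoter table of GRCm38.p6, are shown for the member with the largest change, at chr7:88277835-88278023 on the plus strand, 5′ to 3′. They hold no CACGTG, the letters searched for in the promoters of the members.
Ctsc upstream: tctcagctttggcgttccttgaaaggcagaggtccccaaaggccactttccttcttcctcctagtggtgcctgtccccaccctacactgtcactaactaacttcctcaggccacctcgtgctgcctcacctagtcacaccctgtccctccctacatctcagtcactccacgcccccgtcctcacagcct

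Only 2 other genes of the files lie within 500 kb of Ctsc, and both were tested. Grm5, a metabotropic glutamate receptor gene 143 kb away, had 17 and 12 counts with sgMiat-6 and 34 and 57 with sgMiat-96, against 1867 and 1625 with sgGal4-4, and fell (log2 fold change −6.01 ± 0.17, adjusted p = 2.02e-11, both guides). Rab38, a small GTPase gene 114.4 kb to the other side, had 164 and 205 counts with sgMiat-6 and 192 and 158 with sgMiat-96, against 66 and 82 with sgGal4-4, and rose (1.35 ± 0.19, adjusted p = 4.59e-05). The neighbours of Ctsc thus moved in opposite directions.

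The genes nearest to Ctsc in pattern were sought among 11521 tested genes by Euclidean distance of log2(CPM + 0.5), centred on the mean of the 6 libraries. They were Nptx1 (distance 0.38), Kif1a (0.76) and Vcan (1.35). Nptx1, a neuronal pentraxin gene, averaged 1.56 ± 0.0392 CPM with sgMiat-6, 2.91 ± 0.538 with sgMiat-96 and 591 ± 23.9 with sgGal4-4 (SD, n = 2 each). Vcan, which encodes the matrix proteoglycan versican, averaged 0.979 ± 0.158 CPM with sgMiat-6, 0.597 ± 0.11 with sgMiat-96 and 336 ± 23.9 with sgGal4-4. Kif1a, a kinesin motor gene, averaged 0.201 ± 0.00412 CPM with sgMiat-6, 1.32 ± 0.588 with sgMiat-96 and 293 ± 15.4 with sgGal4-4. Each of these 3 genes was, like Ctsc, lower in all 4 Miat libraries than in both sgGal4-4 libraries, with group means under 3 CPM for either Miat guide. They were picked for likeness to Ctsc over these same 6 libraries, so their fall is no separate result. Of all genes tested, 33.0% were lower in all 4 Miat libraries.

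Ctsd (chr7:142375910-142387827), the aspartic protease and a main protein-degrading enzyme of the lysosome, had the highest level of the family and the largest rise. Its level was 701 and 775 CPM with sgMiat-6 and 1152 and 1085 CPM with sgMiat-96, against 350 and 344 CPM with sgGal4-4. The 3 groups did not overlap, with sgMiat-96 highest. Ctsd rose by 1.09 ± 0.10 on the log2 scale with sgMiat-6 (adjusted p = 1.85e-06) and by 1.69 ± 0.10 with sgMiat-96 (adjusted p = 2.94e-08). The guides themselves differed by 0.60 ± 0.10 (95% interval 0.38 to 0.82, adjusted p = 0.00147), a 1.51-fold higher level with sgMiat-96.

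Genes with a pattern nearest to Ctsd by the same distance were Gstm1 (0.11), a glutathione transferase gene, Cotl1 (0.12), which encodes an actin-binding protein, and Phlda3 (0.13). Gstm1 averaged 321 ± 24.9 CPM with sgMiat-6, 496 ± 49.4 with sgMiat-96 and 154 ± 5.74 with sgGal4-4 (SD, n = 2 each). None of the 3 lies on chromosome 7, where Ctsd is. They too were picked for likeness over these same 6 libraries, so their rise is no separate result. Of all genes tested, 34.0% were higher in all 4 Miat libraries than in both sgGal4-4 libraries.

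Ctsa (chr2:164832872-164841032), the serine carboxypeptidase that also shields neuraminidase and β-galactosidase in the lysosome, had 107 and 121 CPM with sgMiat-6 and 183 and 166 CPM with sgMiat-96, against 75.8 and 78.2 CPM with sgGal4-4. As for Ctsd, the groups were apart and sgMiat-96 was highest. Ctsa rose by 0.56 ± 0.11 with sgMiat-6 (adjusted p = 0.00083) and by 1.18 ± 0.11 with sgMiat-96 (adjusted p = 1.04e-06), and the guides differed by 0.62 ± 0.11 (95% interval 0.38 to 0.85, adjusted p = 0.00171). Ctsa is the only member with 2 transcript rows. The row used, of 3548 bases, and the other, of 3301 bases, share most of their reads.

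TFEB and related factors, which drive lysosomal genes, are known to bind sequences around the letters CACGTG, so these letters were searched for on both strands in the 250 bases before the starts in the RefSeq table, which held 9 starts of 8 members (no start for Ctsb or Ctsh was used). CACGTG was found before 4 of the 9 starts, those of Ctsd, Ctsf and Ctsl and the downstream start of Ctsa, and in 6.02% of all 32851 windows of that length. The longer TCACGTG, which contains CACGTG and was read on both strands, was found for Ctsd and Ctsa, and in 3.13% of all windows. A match is a description of the letters and shows no bound factor. The stretches around each match are given 5′ to 3′ on the gene's strand with CACGTG in capitals. Of the members with a match, Ctsd, Ctsa and Ctsl rose with both guides while Ctsf did not. Ctso also rose with both guides and had no match, and Ctsb rose but had no window to search. Whether a match goes with a rise was not tested. The window before the downstream start of Ctsa and that of Ctsl lie inside the spans of these genes.
Ctsd, chr7:142387908-142387937, minus strand, 98 to 93 bases before the start: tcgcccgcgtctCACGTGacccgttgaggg
Ctsd, chr7:142388055-142388077, minus strand, 245 to 240 bases before the start: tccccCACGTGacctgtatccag
Ctsa, chr2:164833749-164833772, plus strand, 12 to 7 bases before the downstream start: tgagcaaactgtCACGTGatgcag
Ctsl, chr13:64370739-64370768, minus strand, 236 to 231 bases before the start: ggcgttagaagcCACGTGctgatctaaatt
Ctsf, chr19:4855074-4855103, plus strand, 79 to 74 bases before the start: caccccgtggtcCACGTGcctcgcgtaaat

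Ctsl (chr13:64361890-64370772), a broad endopeptidase of the lysosome, had 245 and 252 CPM with sgMiat-6 and 270.1 and 259.7 CPM with sgMiat-96, against 139 and 134 CPM with sgGal4-4. Both Miat groups were above the control, by 0.87 ± 0.10 on the log2 scale for sgMiat-6 (adjusted p = 1.01e-05) and 0.96 ± 0.10 for sgMiat-96 (adjusted p = 2.36e-06). Between the guides the difference was 0.09 ± 0.10, with a 95% interval of −0.12 to 0.30 (adjusted p = 0.475), and its sign turned with the scaling.

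Ctsb (chr14:63122462-63145923), which works as an endopeptidase and as a dipeptidyl carboxypeptidase, had 423 and 403 CPM with sgMiat-6 and 504 and 483 CPM with sgMiat-96, against 321 and 329 CPM with sgGal4-4. The groups did not overlap. The rise was 0.34 ± 0.10 with sgMiat-6 (adjusted p = 0.00938) and 0.60 ± 0.10 with sgMiat-96 (adjusted p = 0.000116). The sgMiat-6 value lost its call when either sgGal4-4 library was left out (0.33 and 0.36, adjusted p = 0.129 and 0.0929). The rise with both guides, 0.47 ± 0.09, was 0.75 after a trend with transcript length was removed. For sgMiat-96 the rise in Ctsb was 0.40 with scaling by total counts and 1.01 with the length trend removed, and it kept its call. The guides differed by 0.26 ± 0.10 (95% interval 0.05 to 0.47), with an adjusted p of 0.0532.

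Ctso (chr3:81932601-81956725), a cysteine cathepsin whose substrates are less well known, had 32.9 and 26.1 CPM with sgMiat-6 and 27.0 and 23.5 CPM with sgMiat-96, against 16.5 and 16.7 CPM with sgGal4-4. All 4 Miat libraries were above the control and the guides overlapped. The rise was 0.83 ± 0.15 with sgMiat-6 (adjusted p = 0.000531) and 0.60 ± 0.15 with sgMiat-96 (adjusted p = 0.00333), where it was 0.40 with scaling by total counts. Tdo2, the tryptophan dioxygenase gene that ends 1.7 kb from Ctso, had 15 and 16 counts with sgMiat-6 and 6 and 7 with sgMiat-96, and 0 in both sgGal4-4 libraries.

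Ctsf (chr19:4855165-4860918), a cysteine cathepsin known in macrophages for trimming the invariant chain of antigen presentation, moved in opposite directions with the guides. It had 7.09 and 9.14 CPM with sgMiat-6 and 24.1 and 23.8 CPM with sgMiat-96, against 17.4 and 16.3 CPM with sgGal4-4. The 3 groups are apart, with sgMiat-6 below the control and sgMiat-96 above it. Ctsf fell by 1.05 on the log2 scale with sgMiat-6 (SE 0.16, adjusted p = 0.000154) and rose by 0.51 ± 0.16 with sgMiat-96 (adjusted p = 0.0104). The difference between the guides was 1.56 ± 0.16 (95% interval 1.21 to 1.92, adjusted p = 0.000201), a 2.96-fold higher level with sgMiat-96. The call of a rise with sgMiat-96 was lost with scaling by total counts (0.31, adjusted p = 0.0935), after removal of a length trend (0.24, adjusted p = 0.139) and without sgGal4-4 replicate 2 (0.46, adjusted p = 0.0924). The mean of both guides, −0.27 ± 0.14 (adjusted p = 0.0952), joins these opposite values. It was called with total counts (−0.40, adjusted p = 0.0191), after removal of the length trend (−0.46, adjusted p = 0.00471) and without sgMiat-6 replicate 2 (−0.38, adjusted p = 0.0155).

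The remaining members were near the limit of detection. Ctsz (chr2:174427494-174439039), a carboxypeptidase, had 15 and 25 counts with sgMiat-6 and 27 and 14 with sgMiat-96, against 11 and 16 with sgGal4-4. The groups overlap, and the log2 fold change for both guides was 0.65 ± 0.43 (adjusted p = 0.202). Ctsk (chr3:95499210-95509387), the collagen-degrading protease of osteoclasts, had 5 and 5 counts with sgMiat-6, 5 and 9 with sgMiat-96 and 3 and 5 with sgGal4-4. Ctsh (chr9:90054267-90076095), an aminopeptidase, had a single count, in a sgMiat-96 library. For Ctsk and Ctsh no difference was detectable at this depth, and neither passed the filter on low counts.

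**Figure D2:**
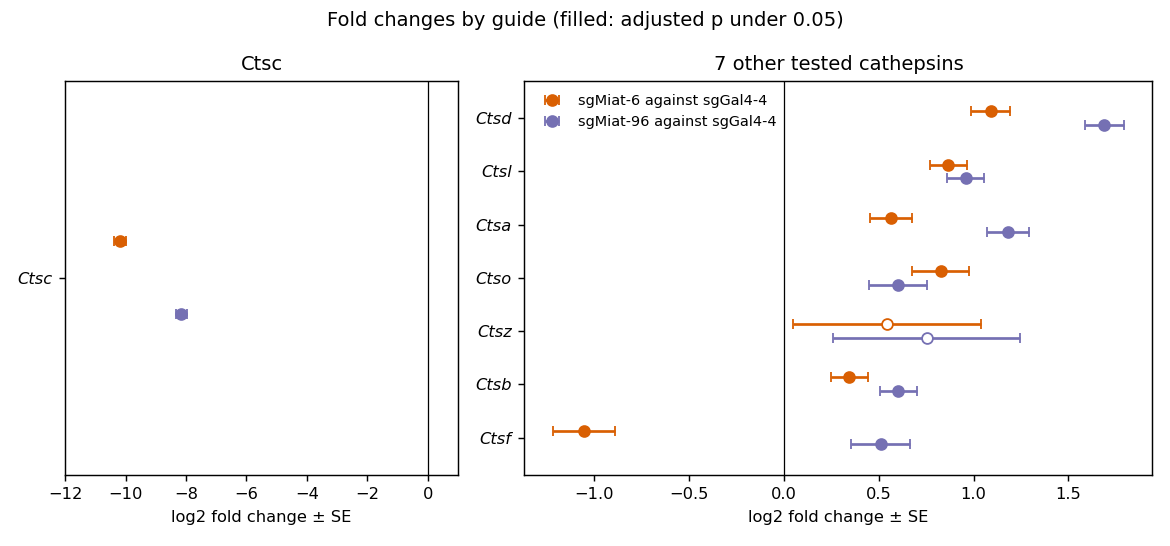
Log2 fold change of the 8 tested cathepsins for sgMiat-6 against sgGal4-4 and sgMiat-96 against sgGal4-4, with bars of 1 SE and open points for genes not called (Ctsz). Ctsc, in a panel with an axis of its own, stands at −10.18 and −8.15, Ctsf lies on opposite sides of 0 at −1.05 and 0.51, and Ctsd reaches 1.09 and 1.69.

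With sgMiat-6 alone, 5 cathepsins rose and Ctsc and Ctsf fell, with Ctsz not called, where 53.0% of all genes were called. With sgMiat-96 alone, 6 rose and Ctsc fell, with Ctsz again not called, where 68.2% of all genes were called. These comparisons share the sgGal4-4 libraries. The median log2 fold change of the tested cathepsins was 0.55 with sgMiat-6, against 0.02 for all genes, and 0.68 with sgMiat-96, against 0.00 for all genes. Set directly against sgMiat-6, sgMiat-96 had higher Ctsa, Ctsc, Ctsd and Ctsf, and 36.7% of all genes were called, 17.9% as higher and 18.8% as lower. That background of 4851 genes was 2251 without sgMiat-6 replicate 1 and 1124 without sgMiat-96 replicate 1, and with scaling by total counts 1380 genes were called as higher and 3721 as lower. Ctsl, Ctsb, Ctso and Ctsz were not called in that comparison, and for Ctso the difference was −0.22 ± 0.15 (95% interval −0.54 to 0.10, adjusted p = 0.256). By library, 6 of the 8 tested cathepsins were higher in both sgMiat-96 libraries than in both sgMiat-6 libraries and none was lower in both, against 35.2% and 34.6% of all genes tested.

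To compare members with each other, levels were divided by transcript length (CPM per kb). Ctsd led in every group, with a mean of 378 ± 26.8 CPM per kb in sgMiat-6, 572 ± 24.3 in sgMiat-96 and 178 ± 2.26 in sgGal4-4 cells (SD, n = 2 each). Below it, the order with sgMiat-6 was Ctsl (126), Ctsb (87.1), Ctsa (32.1), Ctso (8.54) and Ctsf (4.11). With sgMiat-96 it was Ctsl (134), Ctsb (104), Ctsa (49.2), Ctsf (12.1) and Ctso (7.32). With sgGal4-4, Ctsc (85.9) stood after Ctsd, and then came Ctsl (69.1), Ctsb (68.6), Ctsa (21.7), Ctsf (8.53) and Ctso (4.82). Among these neighbours in order, the library ranges overlapped between Ctsl and Ctsb with sgGal4-4, and no other neighbours overlapped. In cells with a Miat guide Ctsc was among the lowest, at 0.0714 CPM per kb with sgMiat-6 and 0.299 with sgMiat-96, where its range overlapped that of Ctsk (0.253).

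The makeup of the family changed with these shifts. Ctsd made up 59.3 ± 1.53% of the summed CPM per kb of the 10 members with sgMiat-6 and 65.0 ± 0.137% with sgMiat-96, against 40.6 ± 0.507% with sgGal4-4 (SD, n = 2 each). Ctsc made up 0.0112 ± 0.00199% with sgMiat-6 and 0.0339 ± 0.00169% with sgMiat-96, against 19.7 ± 0.572% with sgGal4-4. For Ctsl the share was 19.8 ± 0.478% with sgMiat-6, 15.3 ± 0.194% with sgMiat-96 and 15.8 ± 0.401% with sgGal4-4, so that the ranges of sgMiat-96 and sgGal4-4 lay close together although the level of Ctsl was higher with sgMiat-96. The summed level of all 10 members was 616 and 657 CPM per kb with sgMiat-6 and 906 and 856 with sgMiat-96, against 437 and 437 with sgGal4-4. For the 8 cysteine cathepsins alone it was 227 and 226 with sgMiat-6 and 265 and 254 with sgMiat-96, against 236 and 239 with sgGal4-4. Without Ctsc, the other 7 cysteine cathepsins averaged 227 ± 0.75 with sgMiat-6 and 259 ± 7.98 with sgMiat-96, against 152 ± 0.791 with sgGal4-4. The cysteine total with sgMiat-6 was thus slightly below that of the control, and without Ctsc it was above.

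**Figure D3:**
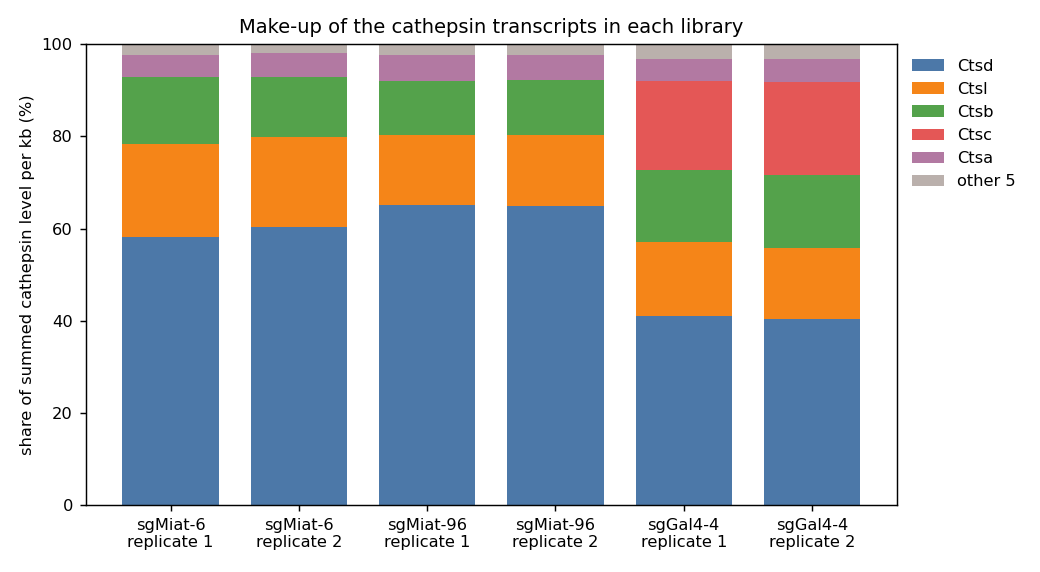
Share of each cathepsin in the summed CPM per kb of the 10 members, in percent, as stacked bars for every library, with the Miat guides left of sgGal4-4 and the 5 lowest members joined. Ctsd takes 59.3% and 65.0% on average in sgMiat-6 and sgMiat-96 cells and 40.6% in sgGal4-4 cells, where Ctsc takes 19.7%.

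Other lysosomal and cathepsin-related genes were read from lists of inhibitors, of genes for activation, protection and cofactors together with other lysosomal enzymes, and of sorting, membrane and regulatory genes. The counts in these lists stand against 33.1% of all genes tested called as higher and 33.4% as lower with both guides, 66.5% in all. Of 21 cathepsin inhibitors, 5 were tested, 2 of them higher and 3 lower with both guides, with a median of −0.72. That median is the value of A2m, and it joins unlike guides. By guide, the median of the inhibitors was −1.10 with sgMiat-6 and 0.03 with sgMiat-96. Serpina3n, a secreted serpin, averaged 46.9 ± 2.53 CPM with sgMiat-6, 61.3 ± 7.31 with sgMiat-96 and 2.63 ± 0.511 with sgGal4-4 (SD, n = 2 each) and rose by 4.35 ± 0.17 on the log2 scale (adjusted p = 2.67e-10). Cst3, which encodes cystatin C, a secreted inhibitor of cysteine cathepsins, averaged 187 ± 23.2 CPM with sgMiat-6, 271 ± 44.0 with sgMiat-96 and 399.7 ± 4.02 with sgGal4-4, and fell (−0.83 ± 0.11, adjusted p = 1.64e-05). Serpinb6a, an intracellular serpin, fell too (−1.08 ± 0.13, adjusted p = 1.33e-05). A2m, a broad protease trap, was lower with sgMiat-6, at 10.2 ± 0.538 CPM against 28.3 ± 1.24 with sgGal4-4 (log2 fold change −1.47), while with sgMiat-96 it was at 28.9 ± 0.539 CPM (0.03).

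Of 18 genes for activation, protection and cofactors, a list that also holds other lysosomal enzymes, 17 were tested, of which 10 rose, 2 fell and 5 were not called, with a median of 0.34. The share called was near the 66.5% of all genes. Cpq, a lysosomal carboxypeptidase gene, had 1151 and 1080 counts with sgMiat-6 and 1175 and 1037 with sgMiat-96, against 17 and 8 with sgGal4-4, and rose by 6.53 ± 0.21 (adjusted p = 6.36e-11). Neu1, the neuraminidase that Ctsa protects, averaged 65.0 ± 4.11 CPM with sgMiat-6, 108 ± 12.9 with sgMiat-96 and 20.6 ± 0.531 with sgGal4-4 (2.02 ± 0.12, adjusted p = 1.3e-08). Dpp7, a lysosomal dipeptidyl peptidase gene, rose as well (2.16 ± 0.17, adjusted p = 2.44e-07), and Hyal1, a hyaluronidase gene, fell (−1.88 ± 0.17, adjusted p = 5.65e-07). Lgmn, the asparaginyl endopeptidase that processes several cathepsins, was looked up after its values were seen, and it fell (−0.67 ± 0.09, adjusted p = 2.91e-05).

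All 20 genes for sorting hydrolases to the lysosome were tested, and 8 rose, 4 fell and 8 were not called, with a median of 0.17. The share called was close to the 66.5% of all genes. Those with the smallest adjusted p were Vps29 (1.16 ± 0.11) and Vps26a (0.83 ± 0.10) of the retromer, which returns sorting receptors, Ap1s1 (1.02 ± 0.11) of the AP-1 coat, and Gnptg (0.95 ± 0.11) of the enzyme that makes the mannose 6-phosphate tag, all of which rose. Of 20 lysosomal membrane genes, all tested, 15 rose, 2 fell and 3 were not called, with a median of 0.69, where 33.1% of all genes rose and 33.4% fell. Mcoln1, the lysosomal calcium channel, averaged 39.3 ± 2.87 CPM with sgMiat-6, 42.2 ± 1.67 with sgMiat-96 and 13.6 ± 0.63 with sgGal4-4 (SD, n = 2 each) and rose by 1.58 ± 0.12. Cd63, a tetraspanin gene, rose by 1.47 ± 0.12, and Lamtor4 and Lamtor1, anchors of nutrient signalling on the lysosome, by 1.34 ± 0.12 and 1.23 ± 0.12. The transcripts of Cd63, Lamtor4, Lamtor1, Vps29, Ap1s1 and Gnptg were 877 to 1277 bases long, and those of Mcoln1 and Vps26a 2002 and 3031. Counts and medians of these and the other gene lists were not repeated with the length trend removed. The part of transcript length in them was not tested.

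Of 16 transcription factors of lysosomal genes and their regulators, 15 were tested, 7 of which rose, 6 fell and 2 were not called, with a median of −0.10, where 33.1% of all genes rose and 33.4% fell. Flcn (1.05 ± 0.10) and Rragc (0.83 ± 0.09), which act on TFEB through the nutrient pathway, and Usf2 (0.68 ± 0.10), a factor that binds CACGTG, rose, and Rragd fell (−1.07 ± 0.10). Tfeb itself, looked up after its values were seen, averaged 14.5 ± 4.03 CPM with sgMiat-6, 24.7 ± 1.03 with sgMiat-96 and 10.6 ± 0.775 with sgGal4-4 (0.84 ± 0.17, adjusted p = 0.000629). By guide, Tfeb was called with sgMiat-96 (1.22 ± 0.19, adjusted p = 7e-05) and not with sgMiat-6 (0.45 ± 0.19, adjusted p = 0.0585), and the guides differed by 0.77 ± 0.18 (adjusted p = 0.00673). Of Tfe3 and Mitf, chosen in the same way, Tfe3 was not called (−0.10 ± 0.10, adjusted p = 0.41), while Mitf fell (−1.83 ± 0.27, adjusted p = 6.39e-05). Among 13 other mouse cathepsins, 11 had 0 counts in every library, Ctss among them, and none was tested. Ctsw had between 1 and 2 counts in the Miat libraries and 8 in each sgGal4-4 library.

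**Figure D4:**
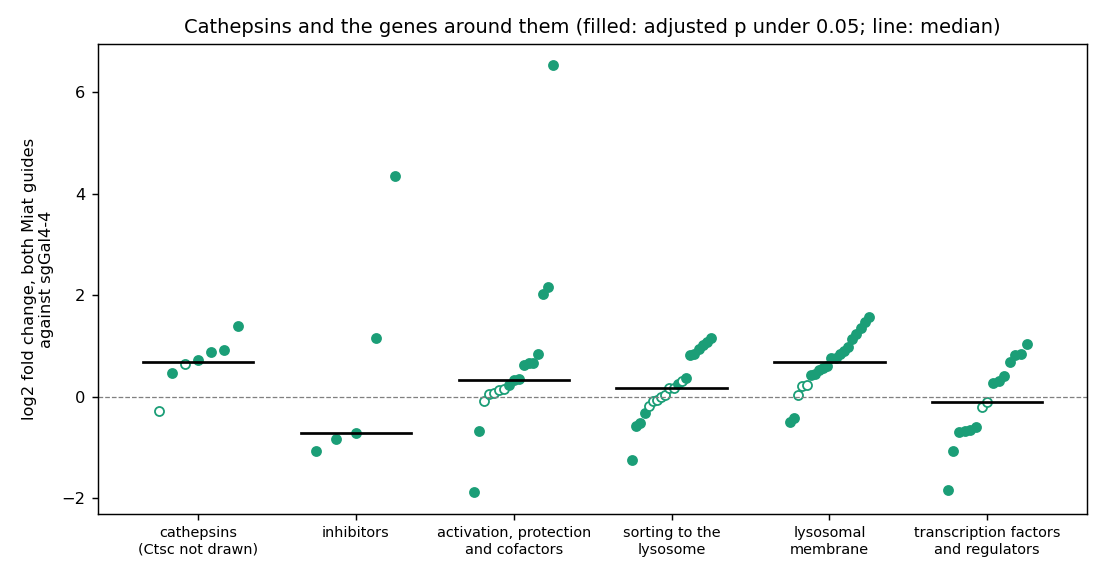
Log2 fold change, both Miat guides against sgGal4-4, of each tested gene of the cathepsin family and of the lists of inhibitors, activators, sorting, membrane and transcription factor genes, with a line at the median, filled points for called genes and Ctsc off the scale and not drawn. The medians, with Ctsc included, are 0.68 for the cathepsins, −0.72 for the inhibitors, 0.34 for activation, 0.17 for sorting, 0.69 for the membrane and −0.10 for the transcription factors. By guide, the inhibitor median is −1.10 with sgMiat-6 and 0.03 with sgMiat-96.

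Markers of other cells that are rich in cathepsins were read beside these results. Of 18 microglia and macrophage markers, 7 had 0 counts everywhere, Cx3cr1, C1qa, C1qb, C1qc, Trem2, Tyrobp and Cd14. Their summed level was 2.38 to 5.16 CPM with sgMiat-6, 5.68 to 7.1 with sgMiat-96 and 5.42 to 6.29 with sgGal4-4, below the level of Ctsb alone by more than an order of magnitude. Of 3 tested, Tmem119 and Fcgr3 fell and Cd68 rose, where 33.4% of all genes tested fell and 33.1% rose. Cd68 had 29 and 80 counts with sgMiat-6 and 86 and 97 with sgMiat-96, against 30 and 32 with sgGal4-4. By guide, Cd68 was called with sgMiat-96 and not with sgMiat-6. Of 7 osteoclast markers none was tested, and their sum was 0.102 to 0.595 CPM with sgMiat-6, 0.337 to 0.693 with sgMiat-96 and 0.101 to 0.155 with sgGal4-4, with Acp5 and Ocstamp at 0.

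Most astrocyte markers fell. Of 11, 10 were tested, and 9 fell and S100b rose, where 33.4% of all genes tested fell and 33.1% rose. The median of the list was −1.54, and Gja1 was at 0. The summed level of the astrocyte markers was 1146 to 1214 CPM with sgMiat-6 and 1208 to 1259.7 with sgMiat-96, against 3855 to 3986 with sgGal4-4. In sgGal4-4 cells Slc1a3 (1938 CPM), Apoe (814), Aldoc (496) and Fgfr3 (452) made up most of that sum. Gfap had only 17 and 12 counts there, and Aqp4 57 and 53. Apoe averaged 19.3 ± 5.13 CPM with sgMiat-6, 98.2 ± 13.1 with sgMiat-96 and 814 ± 51.8 with sgGal4-4 (SD, n = 2 each). Summed levels of the 10 fibroblast and mural markers were 45.3 to 49.4 CPM with sgMiat-6 and 39.6 to 49.5 with sgMiat-96, against 129 to 151 with sgGal4-4, with 2 higher and 3 lower of 5 tested. Cspg4 made up most of that sum, at 37.9 ± 4.15 CPM with sgMiat-6, 37.9 ± 5.7 with sgMiat-96 and 130.2 ± 14.4 with sgGal4-4. Col1a2, Lum and Pdgfrb had 0 or 1 count in each library, and Dcn and Rgs5 at most 3, so the sum does not stand for the list as a whole. Pdgfra rose, at 8.09 ± 0.83 CPM with sgMiat-6, 4.62 ± 1.05 with sgMiat-96 and 0.0511 ± 0.000601 with sgGal4-4. The 7 endothelial markers summed to 10.8 to 13.9 CPM with sgMiat-6 and 6.69 to 7.27 with sgMiat-96, against 8.24 to 9.02 with sgGal4-4, with 1 higher and 2 lower of 3 tested and Cldn5 at 0. The counts in these lists stand against the same 33.1% of all genes called as higher and 33.4% as lower.

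Granule progenitor and Hedgehog tumour markers summed to 2290 to 2548 CPM with sgMiat-6 and 2017 to 2091 with sgMiat-96, against 1118 to 1172 with sgGal4-4. Of 10 tested, 6 rose and 4 fell, and the fallen included Gli1 (−2.88 ± 0.19) and Gli2 (−2.21 ± 0.15), which are Hedgehog effectors, and Mycn (−2.40 ± 0.20). Ccnd1, at 2186 ± 154 CPM with sgMiat-6, 1842 ± 38.8 with sgMiat-96 and 909 ± 22.3 with sgGal4-4 (SD, n = 2 each), made up most of that sum. Neural stem cell markers summed to 6668 to 7307 CPM with sgMiat-6 and 7499.6 to 7999.9 with sgMiat-96, against 4700.5 to 4868 with sgGal4-4, with 3 higher and 4 lower of 9 tested. For the tumour and stem cell lists alike, 33.1% of all genes tested rose and 33.4% fell. The part of these shifts in the cathepsin results was not tested.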

How the data were processed

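Libraries for mRNA were made from total RNA, per the labels' protocols. The submitters' processing notes name STAR and the build GRCm38 (mm10). For the counter, the versions and the strand setting the sources used here give nothing. Each deposited table lists a whole-number count, an FPKM and a TPM per RefSeq transcript, per the file headers. TPM was not used. FPKM served to recover transcript lengths and zeros: in sgMiat-96 replicate 2, 11223 rows listed at 1 count have an FPKM of 0 and were set to 0, which departs from the deposited counts. For each of 24063 symbols the row with the highest total count was kept, of 33984 rows.

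Counts were tested with edgeR 4.0.16 (R 4.3.3) after filterByExpr and TMM scaling, in a quasi-likelihood model of 3 groups over the 6 libraries (residual degrees of freedom 3), with Benjamini-Hochberg adjustment over 13219 genes. Levels are CPM of the rows kept, scaled by TMM. A standard error is the log2 fold change divided by the square root of F, and fitted folds use a prior count of 0.125. Floors and counting intervals cover counting error only. On simulated counts for both guides against sgGal4-4 (11986 genes), 77.8% of changes of 1.5-fold, 94.5% of 2-fold and 100% of 4-fold were recovered, and 13 of 192 calls were false. Only 81, 55 and 64 genes were changed by these folds, up or down, and genes low in sgGal4-4 were left out. In the data 66.5% of all genes tested were called, so the simulation did not try the scaling under so wide a change. Spans, neighbours and promoters come from RefSeq GRCm38.p6.

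Members and gene lists were chosen with earlier results of these data known. Named are all members, up to 4 called genes per list by smallest adjusted p, and the 3 genes nearest in pattern to the cathepsins with the highest and lowest fold change; genes named outside this rule are marked in the text, lie next to a member in the genome or are cell markers. Alternatives were DESeq2, other scaling, no filter, deposited counts, the longest transcript row, removal of a length trend, the compared groups only, a replicate block and leaving out each library.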

Additional observations from a re-analysis of the deposited data

Results flagged for a closer look

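For 4 cathepsins the effect of sgMiat-96 and the effect of sgMiat-6, each against the same sgGal4-4 libraries, differed by the direct test between the guides. The effect of sgMiat-96 minus that of sgMiat-6 was 1.56 on the log2 scale for Ctsf, 2.03 for Ctsc, 0.62 for Ctsa and 0.60 for Ctsd (adjusted p = 0.000201, 0.00446, 0.00171 and 0.00147 by edgeR's quasi-likelihood test). The Ctsc value rests on 3 and 4 counts with sgMiat-6 and 14 and 12 with sgMiat-96. Its call did not hold without sgMiat-96 replicate 1, where the difference was 1.94. Both sgMiat-96 libraries were above both sgMiat-6 libraries for each of the 4, and 36.7% of all genes tested were called in that comparison, or 4851 genes, which became 2251 without sgMiat-6 replicate 1 and 1124 without sgMiat-96 replicate 1. The cause was not tested.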

How the results depend on the processing

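The 6 cathepsins called for both guides together (Ctsa, Ctsb, Ctsc, Ctsd, Ctsl and Ctso) kept their direction and call under all 13 alternatives, and the counts of called cathepsins stayed within 1.5 times of the reported ones. The count of all genes called for sgMiat-96 against sgMiat-6, 4851, ranged from 1124 to 5739 when a library was left out, and was 2251 without sgMiat-6 replicate 1 and 1124 without sgMiat-96 replicate 1; a lone library is then assumed to vary like the other groups. In that comparison the values of members not called changed sign: Ctsl was −0.0575 with total counts and −0.0681 after removal of a length trend, and Ctsz was −0.092 after removal of the trend and between −0.3184 and 0.6284 when a library was left out, below 0 without sgMiat-6 replicate 1 or sgMiat-96 replicate 1. Also there, Ctsb was called with DESeq2 (adjusted p = 0.0324) and after removal of the trend (0.51, adjusted p = 0.0014), and Ctso without sgMiat-6 replicate 2 (−0.40, adjusted p = 0.044). The cause was not tested. Scaling by total counts moved the median of all genes by −0.13 for both guides, −0.20 for sgMiat-96 and −0.14 between the guides, and the calls split into 3537 higher and 5549 lower for sgMiat-96, against 4495 and 4519 as reported, 1380 and 3721 between the guides, against 2361 and 2490, and 3583 and 5196 for both guides, against 4378 and 4415. The deviations of same-numbered libraries from their group means had correlations of 0.0103, −0.09 and −0.213 between groups. With 2 libraries per group these values cannot settle whether the numbers pair libraries. With the replicate number as a block, 6 cathepsins were called for both guides, 7 for each guide and 4 between the guides, as without it, and 8343, 6445, 8562 and 4044 of all genes. Without the filter on low counts neither Ctsk nor Ctsh was called (lowest adjusted p 0.373 and 0.539). At 4 counts or fewer per library, as for Ctsh and for Ctsc with sgMiat-6, depth limits what can be read.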
